A study of Mus musculus with 8 samples.

Results

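The genes described here are 42 macrophage identity and phagocytic receptor genes, chosen by name and not by their level: transcription factors of the lineage, receptors for its growth factors, surface and lysosomal markers, scavenger and dead-cell receptors, the subunits of complement C1q, chemokine receptors, and activating and inhibitory immune receptors. All 42 were matched by symbol among the 55450 genes of the table, 41 of them annotated as protein coding, and they lie on 16 chromosomes. They were measured by total RNA sequencing of RAW264.7, an established mouse macrophage-like line from a tumour induced by Abelson leukaemia virus. The cells carried an shRNA that targets nothing (shNS) or one against Dis3l2 (shDis3l2), an exoribonuclease of uridylated RNA, and were harvested on day 4. Each line gave 3 libraries from cells kept in doxycycline at 1 µg/mL and 1 library from cells kept without it. Each shRNA is represented by 1 line, so an effect of the shRNA and a difference between the cells that carry it cannot be told apart. Whether the replicates were separate cultures is not said in the labels, and p-values measure only the spread between these libraries.

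Macrophages take their identity from a few transcription factors, chiefly PU.1, encoded by Spi1, and C/EBP proteins, and depend on the growth factor receptor encoded by Csf1r. They clear dead cells through receptor tyrosine kinases such as MERTK and AXL, and through C1q, which coats debris. Both kinases see phosphatidylserine through the bridging protein GAS6, and MERTK also through protein S. TREM2 and some C-type lectins signal through adaptors with activating tyrosine motifs, while SIRPα, PIR-B and related receptors carry inhibitory motifs.

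Libraries held 30341823 to 45557804 counts, and levels below are TMM-normalised CPM, which are counts scaled for library size. Dis3l2 itself was at 33.0, 28.7 and 22 CPM in shNS replicates 1, 2 and 3 with doxycycline and at 12, 13.5 and 14.9 CPM in shDis3l2 (log2 fold change -1.05, SE 0.19, edgeR adjusted p = 0.0216). Without doxycycline it was at 29.7 CPM in shNS and 28.6 CPM in shDis3l2, so differences between those libraries were seen at nearly equal Dis3l2. Its call did not hold without shDis3l2 replicate 1, 2 or 3 (edgeR adjusted p = 0.0814, 0.112 and 0.0776). Among the shNS libraries, replicate 2 with doxycycline was closest to the untreated one (r = 0.984 over all genes tested, a description across genes that are not independent replicates), while replicates 1 and 3 each stood at 0.935 to the untreated one. Replicate 2 is therefore named wherever it bears on a value. Of the markers of other cell types, all 4 mast cell and all 4 epithelial markers were at 0 counts, as were 3 of 4 fibroblast markers, and the 4 B cell markers summed to at most 0.0584 CPM. The 5 T cell markers summed to 1.35 to 3.05 CPM, with 3 at 0 in all 8 libraries, and the 6 dendritic cell markers to 1.70 to 4.16 CPM. Of the latter Siglech moved with the line, with no count in shNS with doxycycline and 0.617, 0.875 and 0.502 CPM in shDis3l2 (edgeR adjusted p = 0.0122), a call lost without shDis3l2 replicate 1 or 2 (0.0635 and 0.0576), and its part in the results below was not tested. In bulk RNA, fewer cells of a type and less RNA per cell cannot be told apart.

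Per length of exon, the highest of the 42 genes was Lyz2, the lysozyme of myeloid cells, with a median over the 8 libraries of 7130 TPM-like units (range 4020 to 11500). The scale divides counts by the union of annotated exons and scales each library to the same total, so that genes can be compared with each other. Next came Cd68, a lysosomal glycoprotein (1040), the adaptor Tyrobp (995), Csf1r (756), the galectin Lgals3 (550), the pore-forming protein Mpeg1 (290) and Spi1 (280). On that scale 11 genes had a median of at least 100 units, 18 lay between 10 and 100, 4 between 1 and 10, and 9 below 1. The range of Lyz2 stayed clear of that of Cd68, the next in the order. The other neighbours in the order overlapped across libraries, so that of 41 adjacent pairs 1 was separated.

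**Figure D1:**
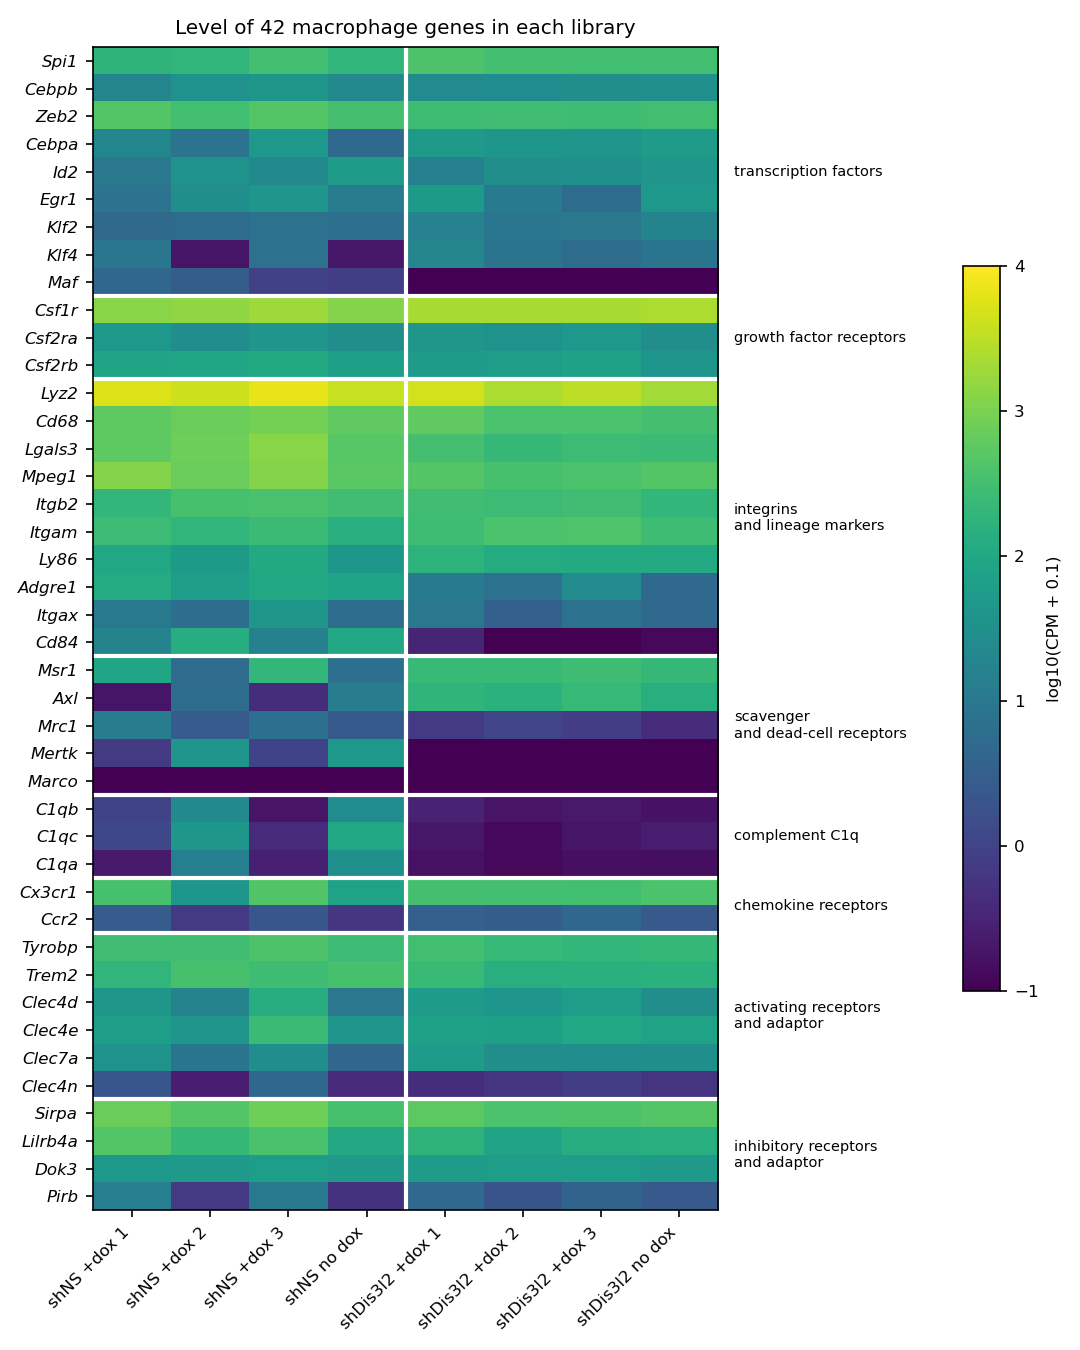
Level of each of the 42 genes (rows, grouped by role) in each of the 8 libraries (columns), as log10 of CPM plus 0.1. Lyz2 and Csf1r are bright in all 8 columns, Marco is dark in all 8, and Mertk and C1qa, C1qb and C1qc are brightest in shNS replicate 2 and in shNS without doxycycline.

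Marco, a scavenger receptor of resident macrophages, had 0 counts in all 8 libraries, where 3 counts would be 0.0659 to 0.0989 CPM of the library total. It was the 1 gene of the 42 below 1 CPM in all 8, and 29 genes were at 1 CPM or more in all 8. Maf and Mertk had 0 counts in all 4 shDis3l2 libraries and were present in all 4 shNS libraries. Among 22 wider markers of resident macrophages in tissues, Marco included, 11 had no count in any library and 17 stayed under 1 CPM in all 8. Others were expressed. In shNS replicate 2 and untreated shNS, P2ry12 was at 22.1 and 40.9 CPM, Siglecf at 12.8 and 28.3 and Cd5l at 17.5 and 5.30. P2ry12 was also at 4.48 to 8.73 CPM in shDis3l2. Siglec1 was at 4.65 and 2.69 CPM in those shNS libraries and reached 28.0 CPM in shDis3l2 replicate 3. Of that list 3 genes were tested between the lines and 0 were called (1 at an unadjusted p under 0.05).

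With doxycycline, 39 of the 42 genes had enough counts to be tested between the lines. Of these, 6 were called lower in shDis3l2 and 0 higher (edgeR's quasi-likelihood test, Benjamini-Hochberg adjustment over 13752 genes, threshold 0.05). An unadjusted p under 0.05 was seen for 19 of the 39, beside 2864 of all 13752 genes tested. Across all genes tested, 6.14% were called, 4.01% lower and 2.13% higher, against 15.4% of the 39. The median log2 fold change of the 39 was -0.42, and stayed at -0.42 with Maf and Mertk set at their bounds, beside 0.00 over all genes. The sign was negative for 24 and positive for 15. The 3 libraries of each line did not overlap for 11 genes with shDis3l2 below (28.2%, against 14.6% of all genes tested) and for 7 with shDis3l2 above (17.9%, against 13.2%). The 6 called genes were Maf, Adgre1, Mpeg1, Lgals3, Cd84 and Mrc1, and they come from 3 of the 8 role groups. Without shDis3l2 replicate 1, 2 or 3, 0, 0 and 1 of the 42 genes were called, where the share of all genes called also fell, to 3.31%, 1.44% and 1.83%. Without shNS replicate 1, 2 or 3 the number was 5, 12 and 6, with 8.24%, 6.45% and 5.57% of all genes called. In the fit without shNS replicate 2, 11 were lower and 1 higher, beside 4.31% lower and 2.15% higher among 13937 genes. Replicate 2 was set apart from these same data. Calls between the lines gained without it, here and for single genes below, are therefore no separate evidence of a difference. DESeq2 called 10 of the 37 genes to which it gave an adjusted p, 3 of them higher in shDis3l2 (Axl, Csf1r and Klf2), where it called 11.1% of 16047 genes, 3.98% higher and 7.17% lower. Those 10 included 5 of the 6 called by edgeR, since DESeq2 gave Cd84 no adjusted p, and also C1qb, which is not among the 39.

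**Figure D2:**
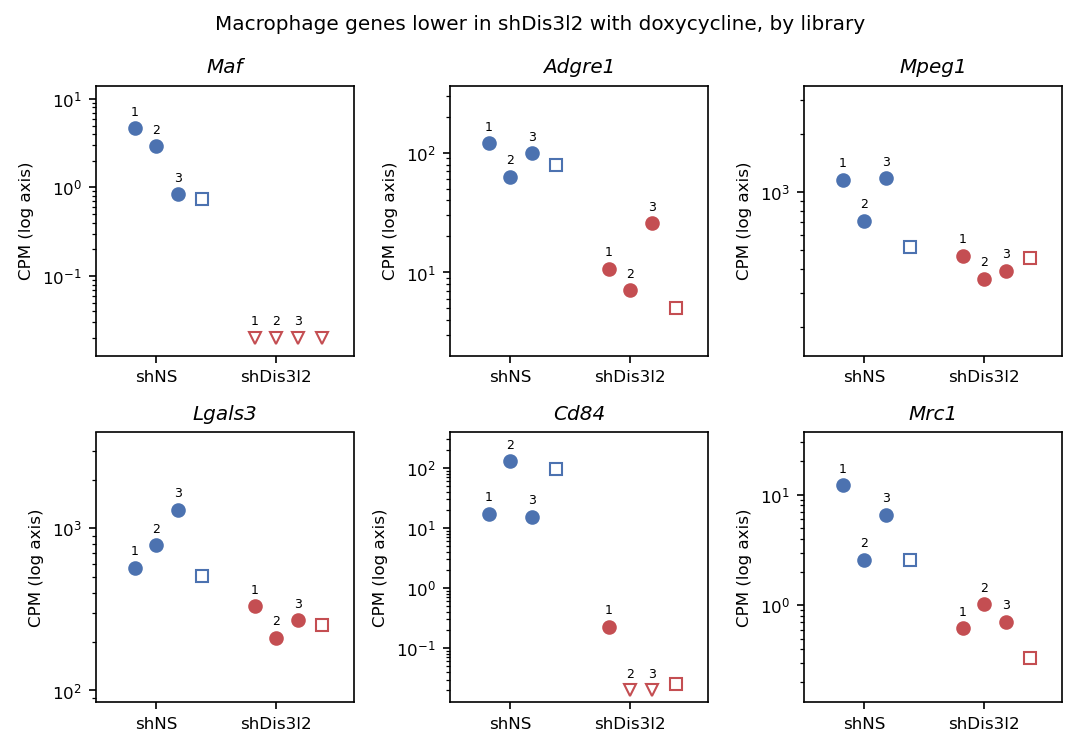
CPM on a log axis of the 6 called genes in each library. Filled circles are the doxycycline libraries, numbered by replicate, open squares the libraries without doxycycline, and open triangles mark libraries below 0.02 CPM. In each panel the marks of the 3 shDis3l2 doxycycline libraries, circles or triangles, sit below the 3 shNS circles.

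Among the 9 transcription factors, Maf was the 1 called. Maf, which encodes the macrophage regulator c-Maf (ENSMUSG00000055435, chromosome 8, 115682942 to 115707794, minus strand, GRCm38), was at 4.66, 2.93 and 0.835 CPM in shNS replicates 1, 2 and 3 and at 0.741 CPM in shNS without doxycycline. No shDis3l2 library had a count, a level at least 34.4-fold lower against a floor of 3 counts per library (edgeR adjusted p = 0.0243). The call was lost without shDis3l2 replicate 1, 2 or 3 (adjusted p = 0.0714, 0.0672 and 0.0642).

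None of the other 8 factors was called. Spi1, the master regulator of myeloid cells, was at 181, 196 and 325 CPM in shNS and 406, 320 and 306 CPM in shDis3l2 (log2 fold change 0.56, edgeR adjusted p = 0.253). Those groups overlapped through shNS replicate 3, and without that library Spi1 was called higher (adjusted p = 0.0473). Klf2, a Krüppel-like factor that restrains myeloid activation, was at 5.26, 5.74 and 7.68 CPM against 16.6, 8.93 and 9.84 CPM (log2 fold change 0.92, edgeR adjusted p = 0.114). Its groups did not overlap. Zeb2, a repressor that maintains macrophage identity in mouse tissues, was at 468, 305 and 466 CPM against 275, 288 and 286 CPM (log2 fold change -0.54, adjusted p = 0.153), also without overlap, and it was called lower without shNS replicate 2 (edgeR adjusted p = 0.035). Cebpa, which drives myeloid commitment, showed one even level in shDis3l2 (50.3, 42.8 and 42.4 CPM) and a wide spread in shNS (19.9, 7.81 and 45.6 CPM; 4.94 CPM without doxycycline). Klf4, a factor of monocyte differentiation, was at 8.88 and 7.2 CPM in shNS replicates 1 and 3 but at 0.0878 CPM in replicate 2 and 0.110 CPM without doxycycline, while shDis3l2 ranged from 5.85 to 20.9 CPM. Cebpb, Id2 and the immediate-early gene Egr1 overlapped between the lines, with edgeR adjusted p from 0.668 to 0.936. Of 21 tested genes in a wider list of myeloid transcription factors, 1 fell and 0 rose (median log2 fold change -0.36): Bhlhe41, a repressor that keeps alveolar macrophages self-renewing in mice, from 159 ± 16.1 to 5.02 ± 5.46 CPM (n = 3, SD; log2 fold change -4.97, edgeR adjusted p = 0.0266). Bhlhe41 lost its call in fits that dropped shNS replicate 1 or 3 and in those that dropped shDis3l2 replicate 2 or 3 (adjusted p up to 0.11).

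The growth factor receptors were expressed in both lines and 0 of the 3 were called (2 at an unadjusted p under 0.05, and 1, Csf1r, by DESeq2). Csf1r, the receptor for CSF-1 and IL-34, was at 1300, 1490 and 1840 CPM in shNS and at 2240, 2230 and 2170 CPM in shDis3l2 (log2 fold change 0.52, SE 0.17, edgeR adjusted p = 0.134). The shDis3l2 libraries lay above all shNS libraries and within a narrow band, and without doxycycline the levels were 1190 and 2410 CPM. Csf2rb, the shared beta chain of the GM-CSF, IL-3 and IL-5 receptors, lay the other way, at 82.2, 87.5 and 111 CPM against 55.2, 63.8 and 71.6 CPM (log2 fold change -0.56, edgeR adjusted p = 0.101). Its near-identical neighbour Csf2rb2, with which it can share reads, was at 62.8 ± 36.2 against 18.3 ± 4.63 CPM (n = 3, SD; log2 fold change -1.77, edgeR adjusted p = 0.0998). Csf2ra, the alpha chain of the GM-CSF receptor, overlapped (log2 fold change 0.14, adjusted p = 0.758). In the wider list of the colony-stimulating factor axis 1 of 9 tested genes rose and 0 fell (median 0.19). This was Cbl, a ubiquitin ligase that turns over the activated CSF-1 receptor, from 247 ± 24.8 to 398 ± 36.1 CPM (n = 3, SD; log2 fold change 0.69, edgeR adjusted p = 0.037). Cbl missed the threshold in the fits without replicate 2 or 3 of either line (adjusted p up to 0.174).

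The 10 integrins and lineage markers held 4 of the 6 called genes and had a median log2 fold change of -1.02. Adgre1, which encodes the classical mouse macrophage marker F4/80 (ENSMUSG00000004730, chromosome 17, 57358691 to 57483527, plus strand), was at 121, 63.0 and 99.2 CPM in shNS and at 10.7, 7.09 and 25.9 CPM in shDis3l2. Its mean fell to 15.4% of that in shNS (log2 fold change -2.70, SE 0.53, edgeR adjusted p = 0.0368), a 6.48-fold ratio of means that was 10.6-fold without shDis3l2 replicate 3, and the untreated libraries were at 78.8 and 5.01 CPM. Mpeg1, which encodes the pore-forming perforin-2 (ENSMUSG00000046805, chromosome 19, 12460779 to 12465283, plus strand), was at 1160, 710 and 1180 CPM in shNS and at 469, 356 and 392 CPM in shDis3l2 (log2 fold change -1.32, SE 0.23, edgeR adjusted p = 0.0203). Unlike Adgre1, Mpeg1 was close to equal without doxycycline, at 523 CPM in shNS and 457 CPM in shDis3l2, although the difference of its doxycycline effects between the lines did not pass the test.

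Lgals3, a galectin that binds damaged phagosomes and a widely used macrophage marker (ENSMUSG00000050335, chromosome 14, 47367751 to 47386160, plus strand), was at 573, 788 and 1300 CPM in shNS and at 331, 211 and 271 CPM in shDis3l2 (log2 fold change -1.71, SE 0.32, edgeR adjusted p = 0.0264). Cd84, an adhesion receptor of the SLAM family (ENSMUSG00000038147, chromosome 1, 171839697 to 171890718, plus strand), was at 17.3, 129 and 15.3 CPM in shNS and at 0.229, 0 and 0 CPM in shDis3l2, with 10 counts in the 3 libraries together (log2 fold change -9.21, SE 1.6, edgeR adjusted p = 0.0283). The 706-fold ratio of means was 214-fold without shNS replicate 2 and 470-fold without shDis3l2 replicate 2 or 3. Its level within shNS was highest in replicate 2 and in the untreated library (94.7 CPM), and untreated shDis3l2 was at 0.0254 CPM. Lgals3, Mpeg1 and Cd84 lost their calls without shDis3l2 replicate 1, 2 or 3 (edgeR adjusted p from 0.0567 to 0.18), and Adgre1 without replicate 1 of either line, shNS replicate 3 or shDis3l2 replicate 2 (0.0732 to 0.11).

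The promoter of Cd84 is printed because Cd84 was nearly silent in 1 line and because it holds a PU box, the GAGGAA core that PU.1 is known to bind. The sequence is from RefSeq on GRCm38.p6, from 250 bases before to 50 after the start (chr1:171839447-171839746, plus strand), written 5′ to 3′ with GAGGAA or its reverse complement TTCCTC in capitals.
Cd84: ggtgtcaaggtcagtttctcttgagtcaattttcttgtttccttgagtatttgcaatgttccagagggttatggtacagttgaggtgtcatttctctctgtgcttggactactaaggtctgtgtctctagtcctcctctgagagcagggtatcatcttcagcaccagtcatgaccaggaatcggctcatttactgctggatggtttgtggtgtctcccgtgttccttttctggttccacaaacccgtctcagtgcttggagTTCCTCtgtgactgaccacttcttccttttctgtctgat
Such windows were found for 29 of the 42 genes, and 15 of the 29 (51.7%) held GAGGAA on either strand, against 31.3% of 27025 genes with a window. The search counted both strands and no other motif. A match is a description of the letters, not of binding.

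The 6 other lineage markers were not called. Cd68 was at 564, 764 and 896 CPM in shNS and at 590, 387 and 386 CPM in shDis3l2 (log2 fold change -0.70, edgeR adjusted p = 0.148). Itgam, the alpha chain of the complement receptor CR3 and known as CD11b, lay above shNS in all 3 shDis3l2 libraries, at 286, 376 and 412 CPM against 270, 195 and 252 CPM (log2 fold change 0.58, adjusted p = 0.139). Its neighbour on chromosome 7, Itgax, which encodes CD11c, was lower and more scattered, at 10.4, 6.18 and 45 CPM in shNS against 9.74, 3.33 and 7.36 CPM. Itgb2, the beta chain that pairs with both, overlapped between the lines (log2 fold change -0.08, edgeR adjusted p = 0.889). Ly86, which encodes the MD-1 partner of an LPS-receptor homologue, was at 169, 121 and 115 CPM in shDis3l2 against 98.5, 53.2 and 110 CPM (adjusted p = 0.275). Lyz2 was at 5560, 4090 and 6950 CPM in shNS and at 4570, 2380 and 3130 CPM in shDis3l2 (log2 fold change -0.72, edgeR adjusted p = 0.222). Its close copy Lyz1, with which reads can be shared, was at most 83.5 CPM. In the wider list of leukocyte surface and cytoplasmic genes 2 of 17 fell and 0 rose (median -0.04). Itga4, the alpha 4 integrin of leukocyte adhesion, fell from 4520 ± 235 to 1140 ± 37.0 CPM (n = 3, SD; log2 fold change -1.98, edgeR adjusted p = 0.000953), and it was called whichever of the 6 libraries was left out. Aif1, which encodes the macrophage protein IBA1, fell by 1.40 in log2 units (edgeR adjusted p = 0.047) and lost its call without shNS replicate 1 or 2 or any 1 of the shDis3l2 replicates (adjusted p up to 0.193).

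**Figure D3:**
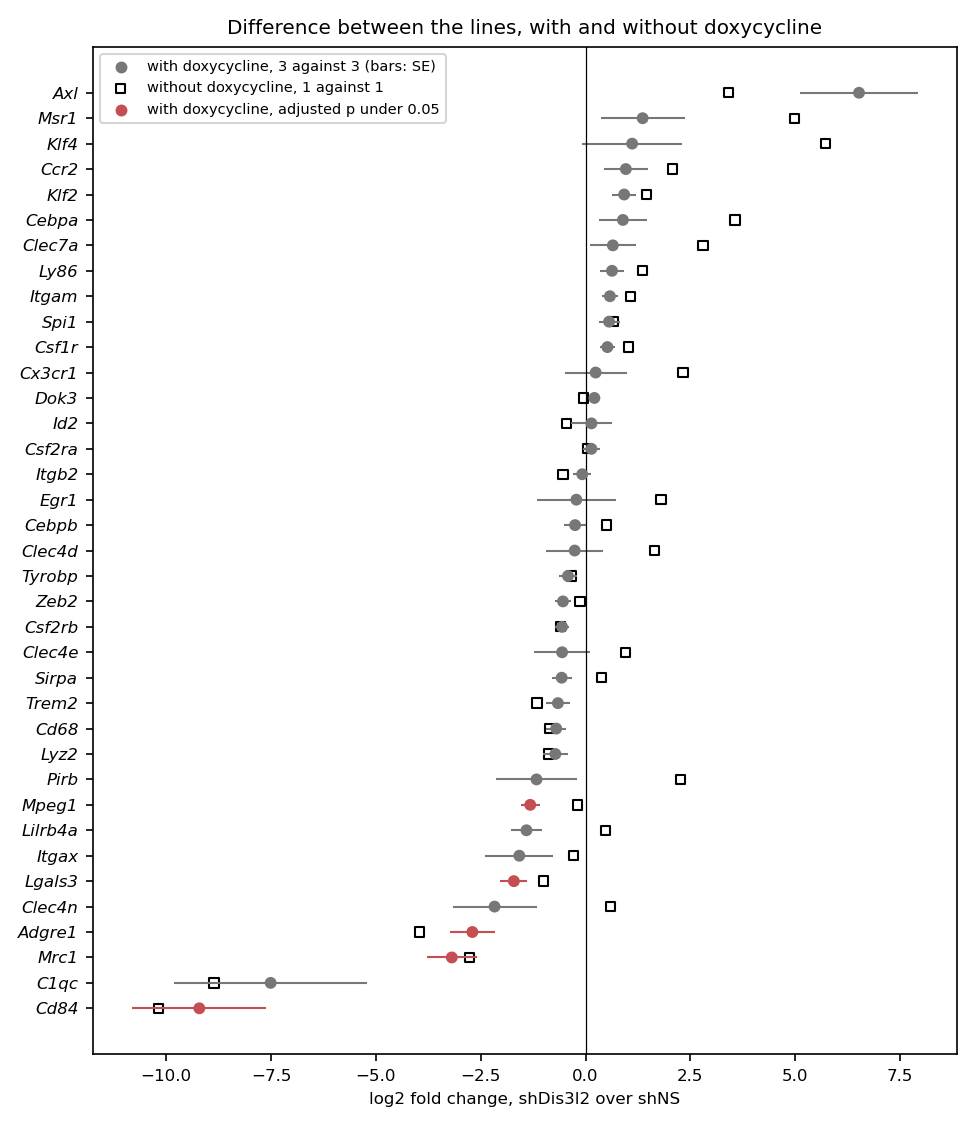
Log2 fold change of shDis3l2 over shNS for 37 tested genes, with Maf and Mertk left out because shDis3l2 had no count. Circles with SE bars are the 3 against 3 doxycycline libraries, red where the adjusted p is under 0.05, and open squares are the single libraries without doxycycline; Axl is highest and Cd84 lowest.

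The scavenger and dead-cell receptors went in different directions. Mrc1, the mannose receptor CD206 (ENSMUSG00000026712, chromosome 2, 14229392 to 14332057, plus strand), was low in both lines and fell from 12.2, 2.58 and 6.62 CPM in shNS to 0.617, 1.02 and 0.709 CPM in shDis3l2 (log2 fold change -3.19, SE 0.59, edgeR adjusted p = 0.0244). The ratio of means was 9.12-fold, and 5.87-fold without shNS replicate 1. The call was lost without shDis3l2 replicate 1, 2 or 3 (adjusted p = 0.106, 0.0971 and 0.115). Mertk (ENSMUSG00000014361, chromosome 2, 128698956 to 128802894, plus strand) had no count in shDis3l2, while shNS held 0.598, 41.5 and 0.892 CPM with doxycycline and 46.6 CPM without. The bound against the floor was at least 176-fold lower, but the spread among the shNS libraries left it short of the threshold (edgeR adjusted p = 0.209), and without shNS replicate 2 it passed (0.0123) with a bound of at least 9.13-fold lower.

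Axl (ENSMUSG00000002602, chromosome 7, 25757273 to 25788705, minus strand) lay the other way between the lines. Within shNS, Axl, like Mertk, was highest in replicate 2 and the untreated library. It was at 0.0945, 5.68 and 0.345 CPM in shNS and at 186, 155 and 223 CPM in shDis3l2, a 92.2-fold ratio of means that was 855-fold without shNS replicate 2 and 62.4-fold without shNS replicate 1. Untreated shNS was at 13.1 CPM and untreated shDis3l2 at 140 CPM. The groups did not overlap, and edgeR's adjusted p was 0.0504 (log2 fold change 6.52, SE 1.4), which misses the threshold. Of the edgeR fits that left out 1 library, only that without shNS replicate 2 passed (adjusted p = 0.000123). The others missed, with an adjusted p up to 0.207 (without shDis3l2 replicate 2). Axl passed in 5 of 9 other settings, among them limma-voom (0.00852) and DESeq2 (0.000124). It missed with DESeq2 size factors in edgeR, no low-count filter, the replicate block and all 8 libraries as 4 groups (edgeR adjusted p up to 0.159). Msr1, the class A scavenger receptor, was at 232, 238 and 280 CPM in shDis3l2 and at 86.9, 5.56 and 201 CPM in shNS (edgeR adjusted p = 0.545). Untreated shNS, at 6.59 CPM, was again next to replicate 2, and untreated shDis3l2 was at 209 CPM.

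The promoters of this pair of related kinases are printed for comparison (RefSeq, GRCm38.p6, 5′ to 3′, with GAGGAA or TTCCTC in capitals). Axl was high in shDis3l2, and Mertk in shNS replicate 2 and untreated shNS alone. Axl lies at chr7:25788684-25788983 on the minus strand and holds 1 copy. Mertk lies at chr2:128698665-128698964 on the plus strand and holds 0 copies.
Axl: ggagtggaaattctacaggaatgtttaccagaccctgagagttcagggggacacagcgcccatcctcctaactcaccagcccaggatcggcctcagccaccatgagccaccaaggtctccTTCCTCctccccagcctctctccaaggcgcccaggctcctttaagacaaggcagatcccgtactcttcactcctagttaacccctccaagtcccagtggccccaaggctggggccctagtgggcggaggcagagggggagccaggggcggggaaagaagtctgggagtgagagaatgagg
Mertk: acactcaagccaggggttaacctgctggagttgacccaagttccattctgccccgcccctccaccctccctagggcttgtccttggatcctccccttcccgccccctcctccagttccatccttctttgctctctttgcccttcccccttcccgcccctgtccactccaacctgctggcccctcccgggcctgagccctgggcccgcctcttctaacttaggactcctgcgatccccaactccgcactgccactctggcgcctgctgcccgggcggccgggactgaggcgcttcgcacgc

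The genes for the bridging ligands, GAS6 of both kinases and protein S of MERTK, were lower in shDis3l2. Gas6 was at 69.3, 513 and 159 CPM in shNS with doxycycline and at 366 CPM without it, against 0.320, 0 and 0 CPM in shDis3l2, with 14 counts in the 3 libraries together (log2 fold change -10.95, edgeR adjusted p = 0.0135), and 0.0508 CPM in shDis3l2 without doxycycline. Pros1, which encodes protein S, fell from 21.4 ± 2.64 to 5.72 ± 0.858 CPM (n = 3, SD; log2 fold change -1.90, SE 0.19, edgeR adjusted p = 0.00314), and it was called whichever of the 6 libraries was left out. Lrp1, a large endocytic receptor for C1q-coated and calreticulin-marked cells, fell from 2350 ± 490 to 1010 ± 188 CPM (log2 fold change -1.22, edgeR adjusted p = 0.0234). The third kinase of the family, Tyro3, stayed at or below 1.81 CPM and was not tested. In all, 3 of 18 tested genes of the list for clearance of dead cells fell and 0 rose (median -0.19). The 2320-fold ratio of means of Gas6 was 1070-fold without shNS replicate 2 and 1540-fold without shDis3l2 replicate 2 or 3. Gas6 lost its call without shDis3l2 replicate 2 or 3 (adjusted p = 0.0971 and 0.0883), and Lrp1 without shNS replicate 3 or any 1 of the shDis3l2 replicates (up to 0.116).

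**Figure D4:**
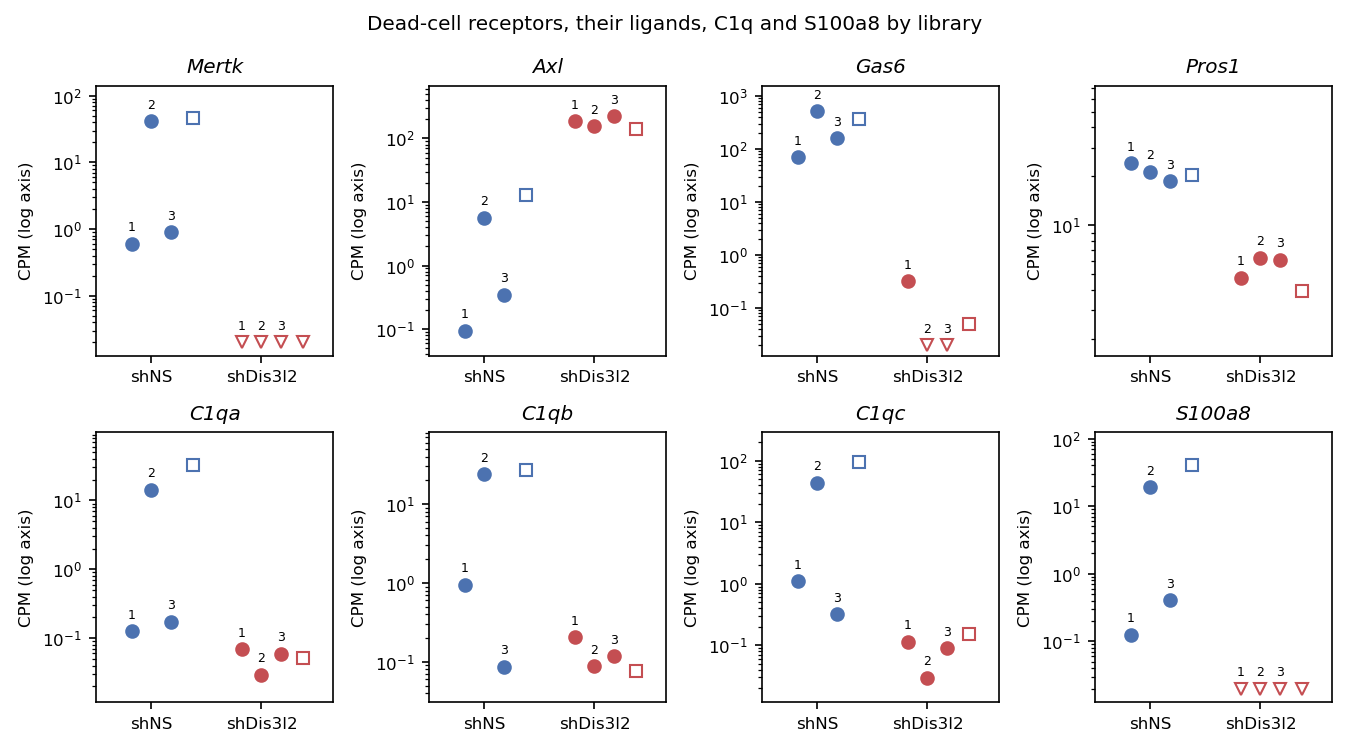
CPM on a log axis of the dead-cell receptor genes Mertk and Axl, the ligand genes Gas6 and Pros1, the C1q genes and S100a8, by library; symbols are circles for doxycycline libraries (numbered by replicate), squares for libraries without doxycycline and triangles for libraries below 0.02 CPM. Mertk, Axl, the C1q genes and S100a8 are high in shNS replicate 2 and untreated shNS relative to shNS replicates 1 and 3, while Pros1 is level within each line.

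The 3 chains of C1q, encoded side by side on the minus strand of chromosome 4 (C1qb from 136880129 to 136886187, C1qc from 136889804 to 136893065 and C1qa from 136895917 to 136898803) shared one pattern. C1qa was at 0.126, 14.2 and 0.173 CPM in shNS with doxycycline and at 32.2 CPM without. C1qb was at 0.945, 23.9 and 0.0863 CPM and at 26.9 CPM without, and C1qc at 1.10, 44.0 and 0.317 CPM and at 96.5 CPM without. In the 4 shDis3l2 libraries none of the chains exceeded 0.206 CPM. High values were thus seen in shNS replicate 2 and untreated shNS alone. With doxycycline only C1qc passed edgeR's count filter for the test between the lines (log2 fold change -7.51, edgeR adjusted p = 0.136), and its groups did not overlap. DESeq2 called C1qb lower (log2 fold change -5.92, DESeq2 adjusted p = 0.0103) and gave C1qa and C1qc no adjusted p. The neutrophil gene S100a8 had the same pattern, at 0.126, 19.1 and 0.403 CPM in shNS with doxycycline, 40.9 CPM without it and 0 in all 4 shDis3l2 libraries. The other neutrophil markers Mpo, Elane, S100a9 and Ly6g were below 1 CPM in all 8 libraries, 2 of them at 0, and the list summed to 0.220 to 19.2 CPM in shNS and 0 to 0.118 CPM in shDis3l2 with doxycycline. The part of other cells in the C1q values was not tested.

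RefSeq windows on GRCm38.p6 were found for the neighbours C1qb and C1qc and are printed because these genes were high in the same libraries. C1qb lies at chr4:136886151-136886450 and C1qc at chr4:136892865-136893164, both on the minus strand, written 5′ to 3′, each with 1 copy of GAGGAA or TTCCTC in capitals.
C1qb: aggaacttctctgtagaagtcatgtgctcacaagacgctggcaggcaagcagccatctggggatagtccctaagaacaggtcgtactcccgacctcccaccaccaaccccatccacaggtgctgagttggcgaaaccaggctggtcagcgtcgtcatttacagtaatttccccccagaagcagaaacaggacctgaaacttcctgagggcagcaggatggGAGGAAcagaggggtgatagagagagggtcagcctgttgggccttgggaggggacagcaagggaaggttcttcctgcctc
C1qc: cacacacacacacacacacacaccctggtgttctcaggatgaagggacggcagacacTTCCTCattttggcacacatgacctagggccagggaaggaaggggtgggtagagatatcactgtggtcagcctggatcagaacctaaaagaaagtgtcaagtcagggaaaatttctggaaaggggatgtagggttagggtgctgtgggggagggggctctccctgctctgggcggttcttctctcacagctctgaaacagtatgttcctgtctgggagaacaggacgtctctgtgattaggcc
In the wider list of complement genes and receptors 2 of 12 fell and 0 rose (median -0.55). C3ar1, the receptor for the C3a fragment, fell from 210 ± 91.1 to 14.7 ± 5.92 CPM (n = 3, SD; log2 fold change -3.83, SE 0.48, edgeR adjusted p = 0.00933) and lost its call without shDis3l2 replicate 3 (0.0575). Cd59a, which blocks the membrane attack complex, fell by 1.93 in log2 units from 1.5 CPM in shNS (edgeR adjusted p = 0.0323) and lost its call when any library but shNS replicate 1 was left out (adjusted p up to 0.173).

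Of the chemokine receptors, Cx3cr1, the fractalkine receptor of resident and patrolling cells, was at 345, 42.5 and 436 CPM in shNS and at 342, 322 and 308 CPM in shDis3l2. Replicate 2 and untreated shNS (76.1 CPM) were low, untreated shDis3l2 was at 380 CPM, and the lines did not differ by test (log2 fold change 0.24, edgeR adjusted p = 0.901). Ccr2, the CCL2 receptor of inflammatory monocytes, was below 5 CPM throughout, at 2.80, 0.615 and 2.10 CPM in shNS and 3.32, 2.89 and 4.52 CPM in shDis3l2 (log2 fold change 0.96, adjusted p = 0.357). Its groups did not overlap.

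Among the 6 genes for activating receptors and their adaptor 0 were called by edgeR or DESeq2 (1 at an unadjusted p under 0.05). Trem2, a lipid receptor of phagocytes, was at 193, 357 and 277 CPM in shNS and 231, 142 and 149 CPM in shDis3l2 (log2 fold change -0.66, edgeR adjusted p = 0.231). Tyrobp, which encodes its signalling adaptor DAP12, was at 295, 299 and 400 CPM against 311, 222 and 207 CPM (log2 fold change -0.42, adjusted p = 0.306). In both genes shDis3l2 replicate 1 overlapped shNS. The C-type lectins Clec4n, Clec4d and Clec4e, known as dectin-2, MCL and Mincle, are neighbours on chromosome 6. Clec4n was the lowest, at 2.11, 0.146 and 4.75 CPM in shNS and 0.343, 0.496 and 0.709 CPM in shDis3l2 (log2 fold change -2.17, edgeR adjusted p = 0.288), and it was called lower without shNS replicate 2 (0.0176). Clec4d and Clec4e were highest in shNS replicate 3 (130 and 253 CPM), and their fold changes turned positive without it (0.78 and 0.62 on the log2 scale, from -0.26 and -0.56). Clec7a, the beta-glucan receptor dectin-1, annotated as a polymorphic pseudogene, was at 36.2, 8.49 and 28.8 CPM in shNS and at 56.7, 30.1 and 28.1 CPM in shDis3l2 (edgeR adjusted p = 0.584).

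The wider list of receptors and signalling genes linked to such activating motifs also holds inhibitory genes, such as Lair1 and Ptpn6. Of its 26 tested genes 4 fell and 0 rose (median -0.07). Among the 4 are a pair of lectin receptor genes, Clec4a3 and Clec4a1. Clec4a3 fell from 25.3 ± 5.32 to 2.18 ± 0.622 CPM (n = 3, SD; log2 fold change -3.53, edgeR adjusted p = 0.00134) and was called whichever of the 6 libraries was left out. Syk, the kinase that binds activating tyrosine motifs, fell from 182 ± 21.5 to 87.0 ± 20.6 CPM (log2 fold change -1.06, edgeR adjusted p = 0.0275). Its adaptor Blnk fell by 1.11 in log2 units (adjusted p = 0.0174), and Clec4a1 fell by 3.49 (0.0184). Blnk and Clec4a1 lost their calls without any 1 of the shDis3l2 replicates, and Syk without shDis3l2 replicate 2 or 3 or shNS replicate 1, with edgeR adjusted p reaching 0.12.

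The inhibitory receptors held the gene next to the threshold among those that were lower, Lilrb4a. This receptor with inhibitory tyrosine motifs was at 467, 215 and 368 CPM in shNS and at 180, 84.3 and 132 CPM in shDis3l2, groups that did not overlap (log2 fold change -1.41, SE 0.37, edgeR adjusted p = 0.0758). It passed without shNS replicate 2 (0.0204) and by DESeq2 (0.00095). The untreated libraries were at 102 CPM in shNS and 142 CPM in shDis3l2. Sirpa, the receptor for the CD47 signal on live cells, was at 739, 461 and 771 CPM against 538, 377 and 409 CPM (log2 fold change -0.57, edgeR adjusted p = 0.228). Dok3, an adaptor that dampens signalling in myeloid cells, was the steadiest of the group, at 46.2, 51.3 and 61.2 CPM against 58.5, 61.5 and 62.9 CPM (log2 fold change 0.21, adjusted p = 0.461). Pirb, which binds MHC class I, was at 13.6, 0.615 and 10.4 CPM in shNS and at 4.98, 1.90 and 4.02 CPM in shDis3l2 (edgeR adjusted p = 0.574), and it was called lower without shNS replicate 2 (0.0456). Reads of Pirb can be shared with the activating Pira genes, of which Pira2 was at most 1.55 CPM, and those of Lilrb4a with a neighbouring copy, so both values are estimates.

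The 42 genes varied more within shNS than within shDis3l2. Over the 4 libraries of a line the range was wider in shNS for 35 genes and in shDis3l2 for 6, and its median was 2.23 against 0.67 on the log2 scale. In shNS 13 genes stayed within a 2-fold range and in shDis3l2 27 did. Replicate 2 of shNS lay closer to the untreated shNS library than to either other treated replicate for 28 genes. The same held of replicate 1 for 7 genes and of replicate 3 for 4. In both replicate 2 and untreated shNS, 6 genes stood over 4-fold above replicates 1 and 3 (Cd84, Mertk, Axl, C1qa, C1qb and C1qc). In both, 5 stood over 4-fold below (Klf4, Msr1, Cx3cr1, Clec4n and Pirb). These counts were not made over all genes. Over all genes tested, library pairs correlated at 0.935 to 0.984 within shNS and at 0.977 to 0.991 within shDis3l2. The wider spread in shNS and the likeness of replicate 2 to the untreated library were thus not limited to the 42 genes. The labels name no batch, and no correction for this difference was made.

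**Figure D5:**
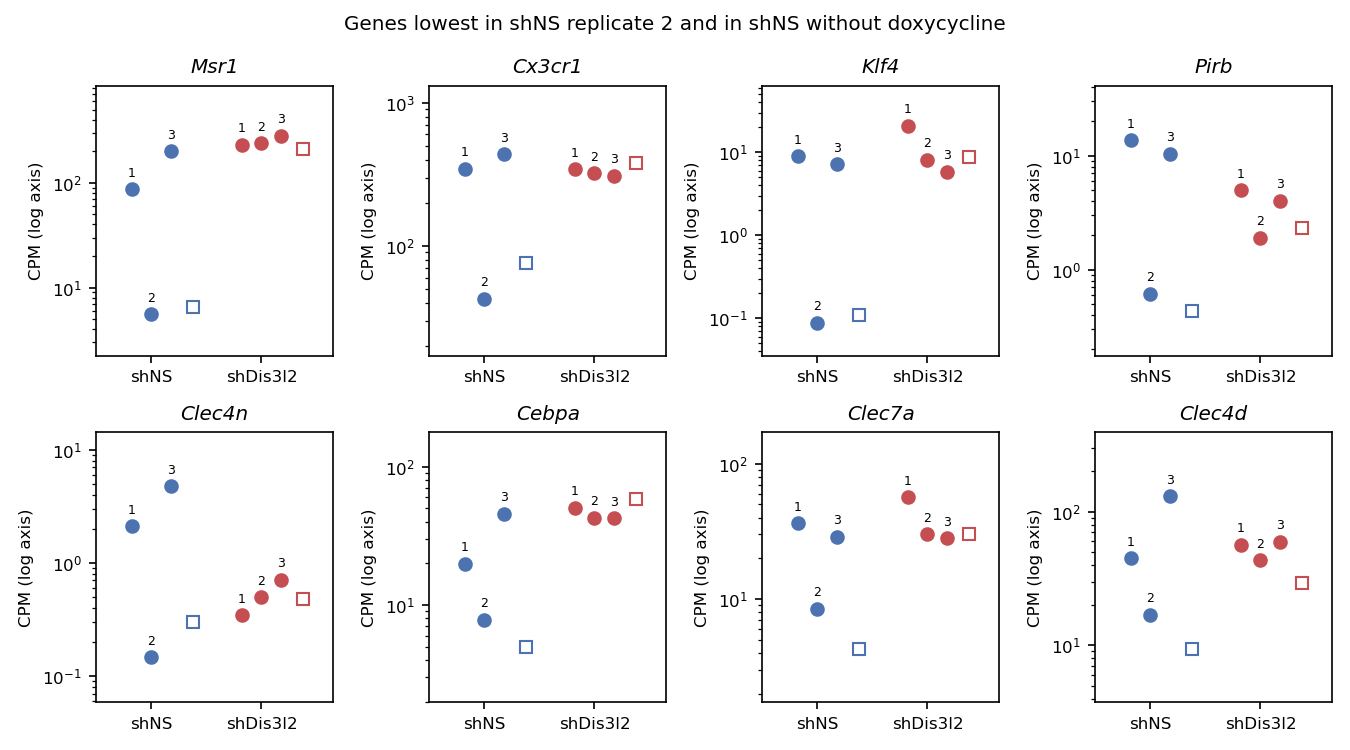
CPM on a log axis of 8 genes whose lowest shNS levels were in replicate 2 and the library without doxycycline; filled circles are doxycycline libraries (numbered by replicate) and open squares are libraries without doxycycline. Msr1 reads 5.56 and 6.59 CPM in those shNS libraries and 209 to 280 CPM in the shDis3l2 libraries.

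Doxycycline itself was compared within each line, 3 libraries against 1, with the lone library assumed to vary like the others. On simulated counts edgeR's test recovered 2% of 2-fold effects in each line, so a count of 0 does not show that an effect was absent. Of 41 genes tested, 0 were called in shNS (5 at an unadjusted p under 0.05) and 0 in shDis3l2 (0), and for 0 did the effect differ between the lines (2: Mpeg1 and Lilrb4a), by edgeR. By the same test 0% of 15250 genes were called in each of these comparisons, with 646, 504 and 577 at an unadjusted p under 0.05. DESeq2, which gave 39 of them an adjusted p, called 3 in shNS (Clec7a, Pirb and Lilrb4a), 0 in shDis3l2 and 0 for the difference, where it called 0.562%, 0.318% and 0.264% of all genes. Limma-voom called 0 in either line. These counts turned on shNS replicate 2: without it 11 of the 41 were called in shNS, where 3.59% of 15167 genes were, and for 4 the effect differed between the lines (0.798% of all genes). Replicate 2 was set apart because it was the treated shNS library closest to the untreated one, the comparator here. Leaving it out therefore favours calls, and the 11 and the 4 are no separate evidence of a doxycycline effect. With all libraries fitted, the median doxycycline effect over the 41 genes was 0.56 in shNS and 0.21 in shDis3l2 on the log2 scale, beside 0.01 and 0.00 over all genes.

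The 11 comprised 6 genes higher with doxycycline and 5 lower. Msr1 (log2 fold change 4.43, edgeR adjusted p = 0.00764), Cx3cr1 (2.34, 0.00444), Cebpa (2.71, 0.0328), Klf4 (6.13, 0.034), Clec7a (2.89, 0.0247) and Pirb (4.74, 0.0151) were higher. Axl (-5.87, 0.000981), Mertk (-5.97, 0.00224), C1qa (-7.73, 0.000528), C1qc (-7.12, 0.00129) and C1qb (-5.74, 0.0204) were lower. The 4 whose effect differed between the lines were Axl (difference 6.29, edgeR adjusted p = 0.00924), C1qa (7.79, 0.0136), Cx3cr1 (-2.57, 0.0198) and Msr1 (-4.17, 0.0396). With all 3 shNS replicates none of these passed by edgeR, and Clec7a and Pirb were called by DESeq2. The values above compare replicates 1 and 3 with the single untreated library. They describe a fit whose left-out library was picked for its likeness to that untreated library.

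Without doxycycline, where Dis3l2 was nearly equal in the lines, each line had 1 library and no test was made. Of the 41 genes 14 were over 2-fold higher in shDis3l2 (34.1%, against 9.29% of 15250 genes) and 10 over 2-fold lower (24.4%, against 11.4%). The higher ones included Klf4 and Msr1, at 0.110 and 6.59 CPM in shNS against 8.64 and 209 CPM in shDis3l2. The lower ones included 5 of the 6 genes called with doxycycline (Maf, Adgre1, Lgals3, Cd84 and Mrc1) and all 3 C1q genes. Mpeg1 was the exception among the 6, with a log2 ratio of -0.19. Over the 39 genes tested with doxycycline, 29 had the same sign in the libraries without it. The share over all genes was not computed, so this count cannot be read as particular to these genes.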

How the data were processed

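Total RNA of 8 RAW264.7 libraries was sequenced as 150 nt pairs from a stranded ribosomal RNA depletion kit, per the labels' protocols. The authors deposited expected counts per gene, not normalised. Trimming, alignment and counting tools listed in the submitters' processing notes are cutadapt, STAR 2.7 and RSEM, and the listed builds are GRCm38 and mm10 (strand setting and annotation release: not given in the sources used here). All 55450 identifiers matched GENCODE release M21, which gave symbols and GRCm38 coordinates. RSEM shares reads among similar genes.

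Expected counts were rounded to whole numbers (4.68 to 5.24% of values changed). Genes passing filterByExpr (minimum count 10) were fitted with edgeR 4.0.16 (R 4.3.3; TMM scaling, robust quasi-likelihood test, two-sided, Benjamini-Hochberg over all genes, threshold 0.05): the 6 doxycycline libraries for the lines, and all 8 as 4 groups for doxycycline. The untreated libraries were compared by log2 ratio (prior count 2). Folds against a group at 0 used a floor of 3 counts in each library, which covers counting error only. The edgeR test was tried on simulated counts with 200 changed genes, in a single draw per comparison. The changed genes were taken only from those above a minimum mean count, so the recovery rates do not cover genes of low count. Between the lines the test recovered 27% of 2-fold and 86% of 4-fold changes, and 8.87% of its calls were false. For doxycycline it recovered 2% of 2-fold changes in each line, and 58% (shNS) and 61% (shDis3l2) of 4-fold changes. False calls there were 11.8% and 10%. Alternatives were DESeq2 1.42.0, its size factors, limma-voom (limma 3.58.1), library size alone, other filters, all 8 libraries, the replicate number as a block, and leaving out each doxycycline library.

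The genes and lists were chosen with earlier results of these data known. All 42 genes are accounted for. Values in every library are given for called genes and up to 3 genes per role with the smallest p, with others given in addition, and up to 4 called genes of each wider list are named. No gene list was tested as a set. Replicates differed beyond counting noise (chi-square per gene at least 18.1).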

Additional observations from a re-analysis of the deposited data

How the results depend on the processing

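The 6 calls kept their direction under every alternative that tested them. The median log2 fold change of the 39 genes stayed between -0.49 and -0.02. Calls of members higher in shDis3l2 were 1 with library size alone, with a filter of 1 CPM in 3 libraries and with limma-voom (Axl each time), 3 by DESeq2 and 4 with line and doxycycline as additive terms over all 8 libraries. Calls over all genes were 1789 by DESeq2 and 1480 with additive terms. DESeq2 gave 3 calls for doxycycline in shNS. Leaving out a library moved the calls over all genes between 203 and 1157, members lower between 0 and 11, members higher between 0 and 1, doxycycline calls in shNS between 0 and 11 and the calls for a difference between lines between 0 and 4 (the 11, 11 and 4 all without shNS replicate 2). Without the low-count filter Adgre1 and Cd84 were lost (edgeR adjusted p = 0.099 and 0.102), and limma-voom lost Cd84 and Mrc1 (0.0971 and 0.0655). The cause was not tested.

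With the replicate number as a block, 421 genes were called and 5 members, of which Maf, Adgre1 and Mpeg1 were shared with the 6 and Lilrb4a and Mertk were added, while Lgals3, Cd84 and Mrc1 missed (edgeR adjusted p = 0.0644, 0.0541 and 0.0879). The numbers share only a number: deviations of same-numbered libraries correlated at -0.13, 0.03 and 0.

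Fold changes turned sign for some genes that were not called. Over the fits that left out 1 library, Egr1 ranged from -1.61 to 0.25, Id2 from -0.20 to 0.56, Csf2ra from -0.04 to 0.33, Itgb2 from -0.27 to 0.05, Cx3cr1 from -0.27 to 0.74, Clec4d from -0.71 to 0.78 and Clec4e from -0.97 to 0.62. With additive terms Egr1 was at 0.25, Id2 at -0.02 and Clec4d at 0.18, and Clec4d was at 0.19 by limma-voom and 0.20 with the block.  Genes near 0, such as C1qa, C1qb, Maf and Mertk in shDis3l2, are limited by depth.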
